A study of Arabidopsis thaliana with 27 samples.

Results

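ARR15 and RR16 are both type-A response regulators of cytokinin signalling in Arabidopsis thaliana. They were chosen by name, each as the probe set that the platform annotation assigns to it alone: ARR15 (locus AT1G74890) and RR16 (locus AT2G40670, also called ARR16). These are 2 of the 22746 probe sets of the ATH1 array that are not controls. Each of the 27 Affymetrix arrays held RNA from laser-dissected embryo tissue of the Col-0 accession, with no transgene, mutation or treatment named in the labels. The arrays used here, 25 in all, fall into 9 groups. The globular stage has an apical and a basal group, and the heart stage has a cotyledon pole and a root pole group. The torpedo stage has cotyledon, root, apical, basal and meristem groups. Of these groups, 7 have 3 arrays each, and the torpedo cotyledon and torpedo root groups have 2 each, their replicates 1 and 3. The replicate 2 arrays of the torpedo cotyledon and torpedo root sets were left out because their titles and tissue labels contradict each other. Nothing in the labels says that replicates came from separate plants, and the spread behind each p-value is that between arrays, part or all of which may be technical. Globular apical replicate 1 carried a different description of its growth conditions from the other arrays.

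Cytokinin is perceived at membranes by receptor histidine kinases, which pass phosphate through shuttle phosphotransfer proteins to response regulators in the nucleus. Type-B response regulators are transcription factors that switch on cytokinin-responsive genes, and among these genes are the type-A regulators. Type-A regulators lack the DNA-binding domain of the type-B class and dampen the pathway, so their transcripts are widely used as a readout of cytokinin response. In the Arabidopsis embryo, ARR15 and its close relative ARR7 are known for their part in setting up the root pole, where auxin raises their transcription in the lower daughter of the founder cell of the root. ARR16 is known in the leaf as a type-A regulator that restrains cytokinin signalling in the stomatal lineage.

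Values are MAS5 signals, which are linear intensities scaled so that the mean of an array, with the top and bottom 2% of probe sets left out, is 100. The median probe set of an array lay between 27.8 and 75.4. Quality differed between arrays. Of the arrays, 4 had a median correlation under 0.4 with the rest, namely heart cotyledon 2, torpedo root 1 and 3 and torpedo meristem 1. Of the arrays used, torpedo root 1 and 3, torpedo cotyledon 3 and globular apical 3 had high hybridization controls. On these the geometric mean of the 18 spiked controls exceeded 4 times its median over all 27 arrays. Both torpedo root arrays are thus among the arrays that stand apart on each measure. The 3′ to 5′ ratio of the actin control probe sets, a sign of RNA truncation, was −1.67 and 0.28 on a log2 scale on the torpedo root arrays, and lay between 2.48 and 5.68 on the torpedo apical and basal arrays. Labels were also checked against tissue markers. A listed marker counts as measured where the annotation used ties a probe set to it alone. The remaining markers were not looked for among the 8730 probe sets with no named gene. The root-pole transcription factor genes BBM and JKD summed to between 516 and 679 in the heart root arrays and to between 148 and 656 in the torpedo basal arrays, but only to 20.3 and 32.2 in the torpedo root arrays, where BBM read 6.3 and 9.1. The captures labelled torpedo root were thus low in both measured root-pole markers, of 8 listed. In the globular basal arrays the sum varied widely, from 15.1, below both torpedo root arrays, to 2861. The 8 measured cotyledon markers, of 15 listed, summed to 707 and 1635 in the torpedo root and 16292.5 and 29175.5 in the torpedo cotyledon arrays. In the torpedo basal arrays they summed to 8595 to 11918. Only PSBW, LHCB4.1 and LHCB4.2 had lower means in the torpedo root than in the torpedo basal arrays. YAB3, YAB5, PHV, JAG and NGA1 had higher ones, from 88.2 against 74.3 for PHV to 109.3 against 7.81 for NGA1. At the heart stage the sum went against the labels, at 441 to 5473 in the cotyledon and 4819 to 17107 in the root arrays. PSBW, LHCB4.1 and LHCB4.2 had higher means in the heart root arrays, with PSBW at 9401 against 1721.5. YAB3, YAB5, PHV, JAG and NGA1 had higher means in the heart cotyledon arrays, from 78.0 against 54.2 for PHV to 90.4 against 14.4 for YAB5. The medians of YAB3 and PHV went the other way, at 23.6 against 29.9 and 47.7 against 59.2. Of the tissues around the embryo, 1 of 8 listed endosperm genes and 1 of 7 seed coat genes were measured. The endosperm gene AGL62 read 78.2 and 103.5 in the torpedo root arrays against 1.44 to 16.1 in the torpedo basal arrays. The seed coat gene BAN read 15.5 and 27.5 against 1.72 to 16.3. The bacterial control probe sets described below had medians of 29.2 and 30.9 on the torpedo root arrays, above both BAN values. Their 90th percentiles there, 113.5 and 164.2, were above both AGL62 values. On the torpedo basal arrays the control medians were only 2.99 to 12.5. Single arrays of other groups read higher: AGL62 reached 180.2 in the heart root group, and BAN reached 444.6 in the globular apical and 168.9 in the heart cotyledon group. Whether RNA of these tissues had a part in any level given here was not tested. CLV3, a shoot stem cell signal peptide gene, read 52.9 to 510 in the torpedo meristem arrays and 3.79 to 28.2 in the torpedo apical arrays.

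ARR15 was a dim probe set. Its signal ran from 3.34 to 218.3 over the 25 arrays, with a median of 39.4, and it was under the array's own median on 16 arrays and over 100 on only 3. In the globular apical arrays it read 15.1, 54.1 and 56.4. In the globular basal arrays it read 15.3, 108.9 and 24.9. The first array of each globular group was low, and the groups overlapped, as they did for all but 8.74% of tested probe sets. In the heart cotyledon arrays ARR15 read 41.6, 58.1 and 55.8. In the heart root arrays it read 39.4, 87.4 and 36.8. The heart cotyledon values lay within the range of the heart root values; the groups did not overlap for 7.57% of probe sets. At the torpedo stage the spread between groups was wider. The torpedo cotyledon arrays read 58.9 and 12.5. The torpedo root arrays read 218.3 and 169.0, above every other array used here. Of all 20890 tested probe sets, 3.02% had both torpedo root arrays above every other array in this way. The torpedo apical arrays read 14.8, 30.0 and 57.8. The torpedo basal arrays read 3.34, 15.3 and 5.80, and this was the lowest group. The torpedo meristem arrays read 16.7, 39.3 and 61.2, close to the torpedo apical range. The highest and the lowest ARR15 groups were thus both torpedo captures that the labels place in the lower embryo: 194 ± 34.9 (SD, n = 2) in the torpedo root and 8.13 ± 6.30 (SD, n = 3) in the torpedo basal arrays. These groups were not compared by a test. They also differ in deposited form, since the torpedo root values were rounded to 1 decimal and the torpedo basal values were not. As a multiple of the array median, ARR15 was 3.23 and 2.94 in the torpedo root arrays and 0.107, 0.299 and 0.162 in the torpedo basal arrays. These tissues are whole captures, so fewer cells with the transcript and less transcript per cell could not be told apart if transcript levels did differ. The part of array quality, tissue identity and background in the torpedo root and torpedo basal levels was not tested.

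**Figure D1:**
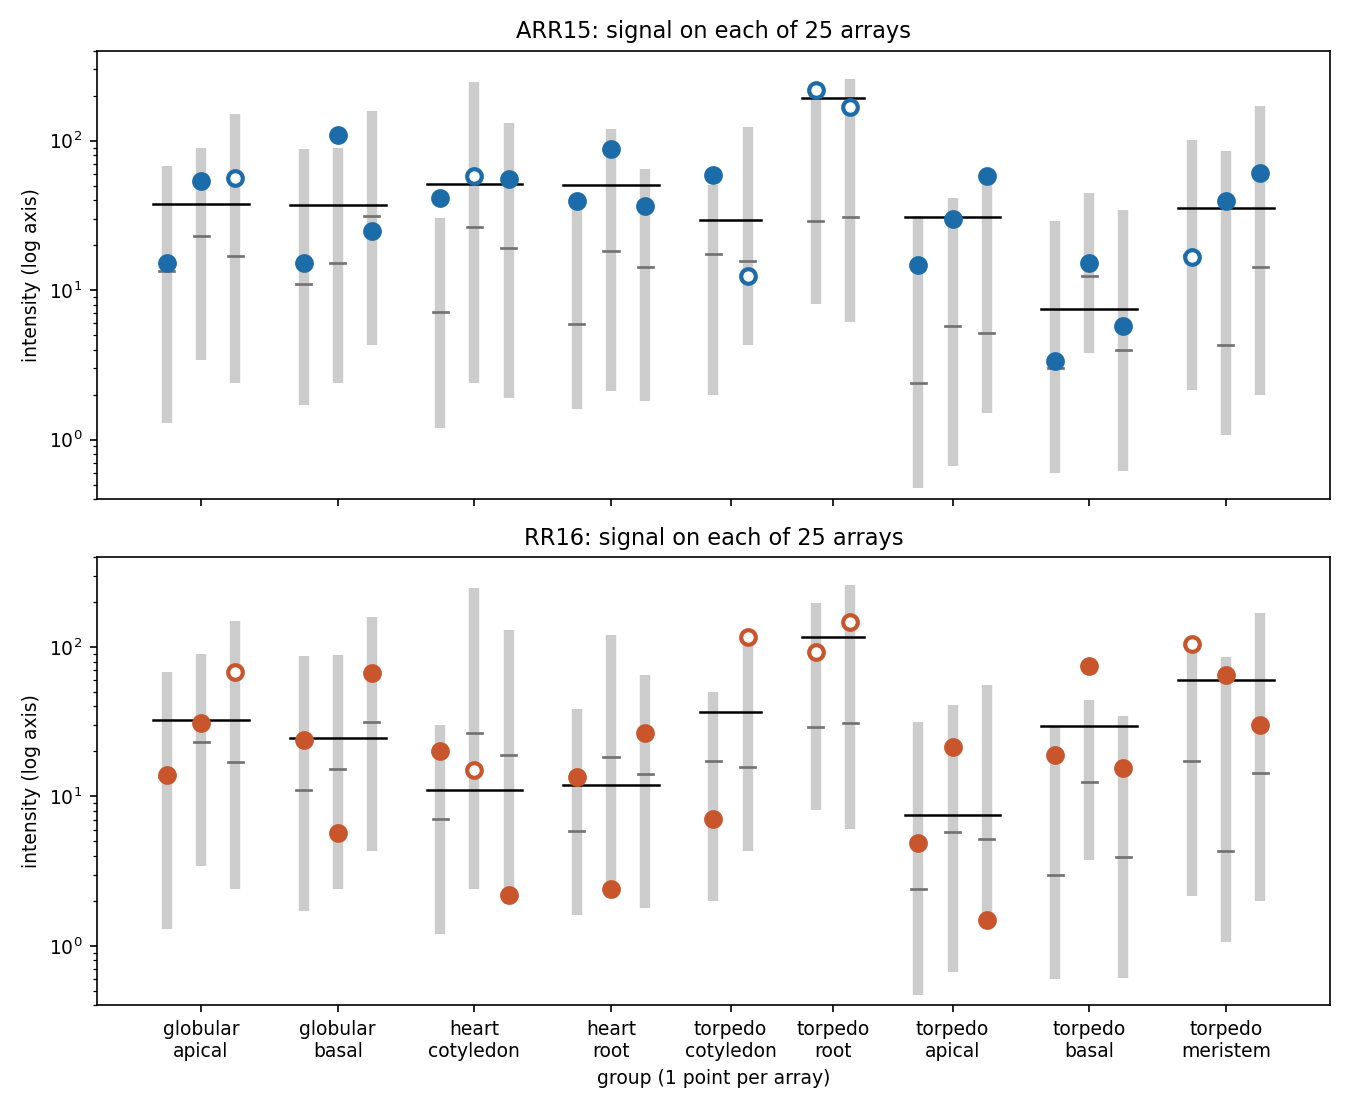
Signal of ARR15 (upper panel) and RR16 (lower panel) on each of the 25 arrays, on a log axis, by group. Each point is 1 array, the black line is the group's mean taken on log2(intensity + 10) and turned back, the gray bar is the range of 27 bacterial control probe sets on that array and the gray tick their median; open points are arrays whose median correlation was under 0.4 or whose hybridization controls exceeded 4 times the median. The ARR15 points of the torpedo root arrays, 218.3 and 169.0, are the highest of their panel, and many points of both panels lie inside the gray bars.

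RR16 also lay mostly in the lower part of its arrays. Its signal ran from 1.50 to 146.8, with a median of 21.4, was under the array's median on 17 arrays and over 100 on 3. In the globular apical arrays it read 13.9, 31.2 and 68.3. In the globular basal arrays it read 23.9, 5.7 and 67.0. These ranges cover each other. In the heart cotyledon arrays RR16 read 20.3, 15.0 and 2.2. In the heart root arrays it read 13.5, 2.4 and 26.6. All 6 heart arrays were thus at 26.6 or below. The torpedo cotyledon arrays read 7.1 and 117.2, the widest split between replicates of a group. The torpedo root arrays read 92.3 and 146.8, which again included the highest single value. The torpedo cotyledon array with 117.2 and both torpedo root arrays are among those with high hybridization controls. The torpedo apical arrays read 4.90, 21.4 and 1.50, the lowest group. The torpedo basal arrays read 19.1, 74.2 and 15.4. The torpedo meristem arrays read 105, 65.0 and 30.2, all above all 3 torpedo apical arrays. Group means were 119.55 ± 38.5 (SD, n = 2) in the torpedo root, 66.7 ± 37.5 (SD, n = 3) in the torpedo meristem and 9.25 ± 10.6 (SD, n = 3) in the torpedo apical arrays.

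How far these signals stood above background was read from 27 control probe sets for bacterial genes, which no plant RNA should fill. This use assumes that no RNA for them was added to the samples, which was not tested. Their median lay between 2.39 and 31.5 on the 25 arrays, and the highest of them between 29.0 and 258.3. ARR15 exceeded all 27 on 6 arrays, and it was at or below their median on 3. RR16 exceeded all 27 on 2 arrays, and it was at or below their median on 6. In the torpedo root arrays ARR15 exceeded 27 and 25 of the 27, and RR16 exceeded 20 and 23. In the torpedo basal arrays ARR15 exceeded 15, 15 and 17 of the 27, near the middle of the controls, whereas RR16 exceeded 25, 27 and 20. In the heart cotyledon arrays RR16 exceeded 23, 6 and 1 of them, and in the heart root arrays 20, 1 and 20. Low values were not all at background, however: RR16 at 19.1 in torpedo basal 4 exceeded 25 of the 27, and ARR15 at 41.6 in heart cotyledon 1 exceeded all 27. Where a value lies among the controls of its array, a fold taken from it is poorly determined. The files used here hold no detection call for any probe set.

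**Figure D2:**
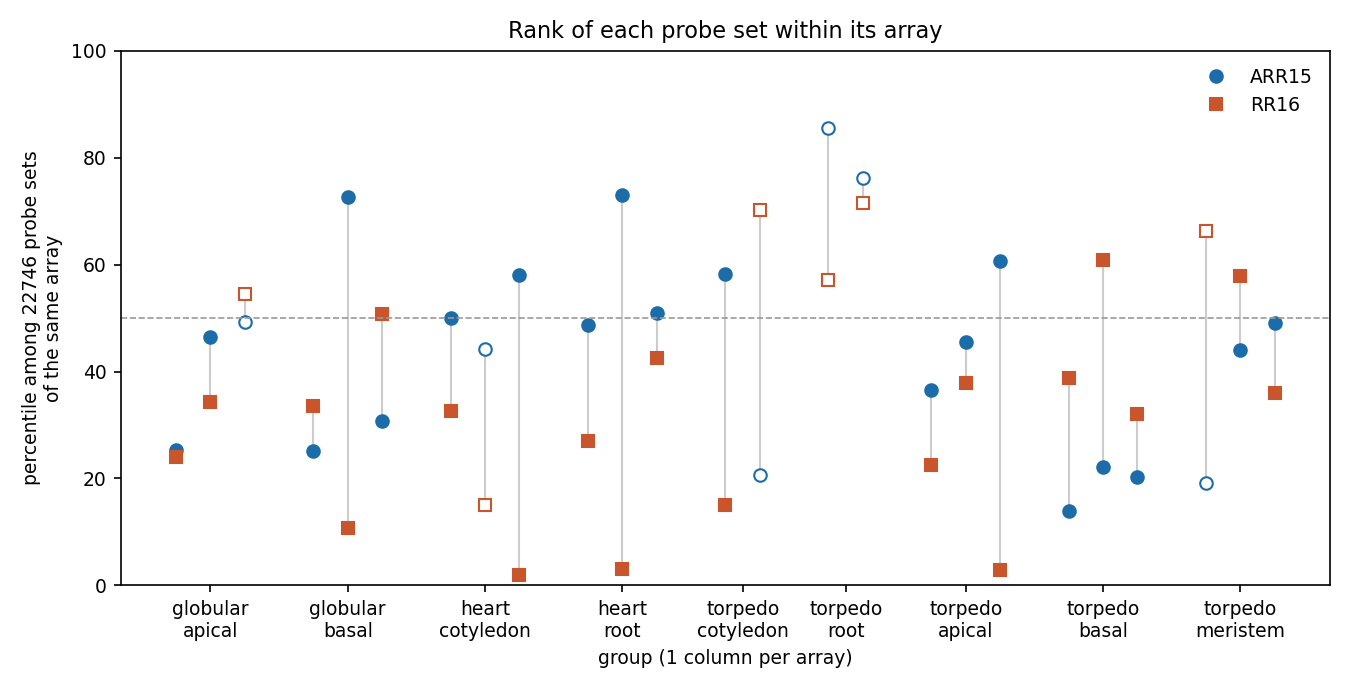
Percentile of ARR15 and RR16 among the 22746 non-control probe sets of the same array, for each of the 25 arrays, by group; the dashed line is the middle of the array. ARR15 ranged from the 13.9th to the 85.6th percentile with a median of 46.4, and RR16 from 1.95 to 71.5 with a median of 34.3.

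Ordered by the mean of log2(intensity + 10), the scale of all tests here, ARR15 ran from torpedo root down through heart cotyledon, heart root, globular apical, globular basal, torpedo meristem, torpedo apical and torpedo cotyledon to torpedo basal. The ranges of neighbours in this order overlapped in 7 of 8 cases, the exception being torpedo root against heart cotyledon. RR16 ran from torpedo root through torpedo meristem, torpedo cotyledon, globular apical, torpedo basal, globular basal, heart root and heart cotyledon to torpedo apical, and all 8 pairs of neighbours overlapped. Over all 36 pairs of groups, ARR15 did not overlap in 12 and RR16 in 9, against a median of 8 over all tested probe sets. The spread within groups (pooled SD on the log2 scale) was 0.74 for ARR15, and 14.5% of tested probe sets had a smaller one. It was 0.96 for RR16, near the median of 0.98 over all probe sets. A moderated F test over the 9 groups (limma, adjusted by Benjamini-Hochberg over 20890 probe sets) gave F = 2.91 with adjusted p = 0.159 for ARR15. For RR16 it gave F = 2.29 with adjusted p = 0.229. At an adjusted p of 0.05 that test called 1.25% of probe sets, and neither gene was among them.

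The first question was whether either gene differed between the upper and the lower part of the embryo. No difference passed the test at any stage. For ARR15 the mean of the upper-minus-lower differences over 4 pairs of groups was −0.28 on the log2 scale (SE 0.36, 95% interval −1.02 to 0.46, limma adjusted p = 0.963). For RR16 it was −0.60 (SE 0.41, interval −1.44 to 0.25, adjusted p = 0.912). Each of these intervals still holds differences of 1 log2 unit towards the lower part. Both means rest in part on single torpedo cotyledon arrays: without replicate 1 of that group they were −0.48 for ARR15 and −0.23 for RR16, and without replicate 3 they were −0.078 and −0.96. The ARR15 mean was also −0.11 without globular basal replicate 2 and −0.17 without globular apical replicate 1. At an adjusted p of 0.05, 0.00479% of all probe sets were called in this mean and 0% in the globular pair. At the globular stage ARR15 differed by 0.008 (SE 0.68, interval −1.39 to 1.40) and RR16 by 0.30 (SE 0.77, interval −1.29 to 1.89), both with an adjusted p of 1.00. At the heart stage ARR15 differed by 0.013 (interval −1.38 to 1.41, adjusted p = 0.998) and RR16 by −0.07 (interval −1.66 to 1.52, adjusted p = 0.994), where 0.00957% of probe sets were called. The ARR15 intervals of these stages, which are not adjusted for the number of probe sets, reach to about 1.40 log2 units in either direction.

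The torpedo stage was sampled by 2 such pairs of capture sets, and the ARR15 difference had opposite signs in them, although neither passed the test. The pairs also differ in deposited form: cotyledon and root values were rounded to 1 decimal, and apical and basal values were not. Between the torpedo cotyledon and torpedo root arrays ARR15 was lower in the cotyledon by a log2 difference of −2.36 (SE 0.83, 95% interval −4.07 to −0.65), with a limma adjusted p of 0.244, so it did not pass. The groups did not overlap, but neither did they for 36% of all tested probe sets, and 11.7% had an unadjusted p under 0.05, while 0.00957% were called. The median difference over all probe sets in this pair was −0.35. Without torpedo cotyledon replicate 3, the array with ARR15 at 12.5, the ARR15 difference was −1.55 (adjusted p = 0.652). The torpedo root arrays also had higher hybridization controls, lower actin 3′ to 5′ ratios and low BBM and JKD signal. The part of these in the difference was not tested. RR16 differed by −1.44 in the same pair (SE 0.95, interval −3.39 to 0.51, adjusted p = 0.598), with 1 cotyledon array below and 1 between the root arrays. Without torpedo cotyledon replicate 3 the difference became −2.89, and without replicate 1 it was 0.006, so its size rests on which cotyledon array is taken. Between the torpedo apical and basal arrays ARR15 was 1.22 higher in the apical arrays (SE 0.68, interval −0.17 to 2.61, adjusted p = 0.999), and RR16 differed by −1.18 (SE 0.77, interval −2.77 to 0.41, adjusted p = 0.999). Without torpedo basal replicate 5, the array with RR16 at 74.2, the RR16 difference was −0.63. Both genes' ranges overlapped in that pair, in which 11.6% of probe sets did not overlap and 0.091% were called. A test of whether the apical-basal difference changed from the globular to the torpedo stage gave 1.21 for ARR15 (interval −0.76 to 3.18) and −1.48 for RR16, each with an adjusted p of 1.00, and 0.00479% of probe sets were called. From the globular to the heart stage the change was 0.004 for ARR15 and −0.37 for RR16, with 0% called.

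**Figure D3:**
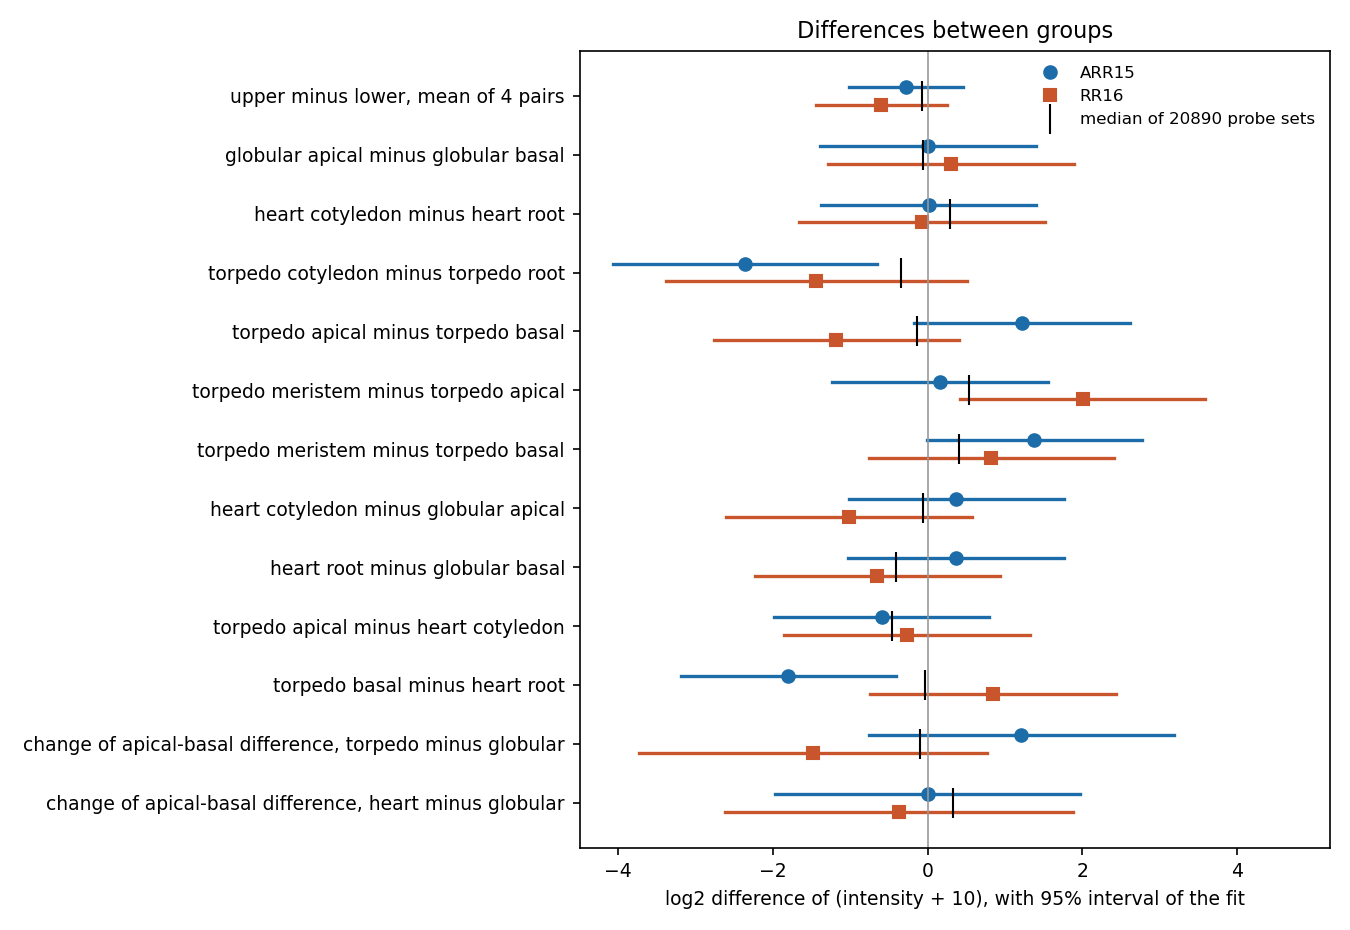
Difference of ARR15 (circles) and RR16 (squares) between groups in 13 comparisons, in log2 of (intensity + 10), with the 95% interval of the fit as a bar; the black tick is the median difference of all 20890 tested probe sets. The interval leaves out 0 for ARR15 in torpedo cotyledon minus torpedo root (−2.36) and torpedo basal minus heart root (−1.80) and for RR16 in torpedo meristem minus torpedo apical (2.00), and none of these passed after adjustment over all probe sets.

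The torpedo meristem captures were next set against the other torpedo captures, since type-A regulators such as ARR7 and ARR15 are known to be repressed by the stem cell factor WUSCHEL in the shoot meristem. ARR15 differed by 0.16 between the meristem and the apical arrays (interval −1.23 to 1.55, limma adjusted p = 0.902). RR16 was 2.00 higher in the meristem arrays (SE 0.77, interval 0.41 to 3.59), with adjusted p = 0.147. All 3 meristem arrays, at 30.2 to 105, exceeded all 3 apical arrays, at 1.50 to 21.4. In this pair the median of all probe sets was 0.54 higher in the meristem arrays, 33.8% of probe sets did not overlap, 22.4% had an unadjusted p under 0.05 and 0.211% were called. The log2 ratio of actin 3′ to 5′ signal was −0.28, 4.85 and 0.28 in the meristem arrays and 4.59 to 5.51 in the apical arrays, and its part in the difference was not tested. Without the meristem array of low median correlation, which has the highest RR16 value of the 3, the difference was 1.65 (adjusted p = 0.373). Against the torpedo basal arrays ARR15 was 1.38 higher in the meristem (SE 0.68, interval −0.01 to 2.77, adjusted p = 0.518). Its groups did not overlap, 16.7 to 61.2 against 3.34 to 15.3, as for 11.4% of all probe sets, and 0.0144% were called. RR16 was 0.83 higher there (interval −0.76 to 2.42, adjusted p = 0.693), with overlapping ranges.

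Of the 4 comparisons across stages, ARR15 differed most between the heart root and the torpedo basal arrays. The torpedo basal arrays were lower than the heart root arrays by a log2 difference of −1.80 (SE 0.68, 95% interval −3.19 to −0.41), with a limma adjusted p of 0.497, so this did not pass either. The ranges were 3.34 to 15.3 and 36.8 to 87.4 and did not overlap, as for 13.2% of probe sets, while the torpedo root arrays, at 218.3 and 169.0, lay above the heart root range; 7.69% had an unadjusted p under 0.05 and 0.067% were called. RR16 differed by 0.85 in the other direction (interval −0.74 to 2.44, adjusted p = 0.866). The apical, basal and meristem values of the torpedo stage were deposited unrounded and those of the other 18 arrays rounded to 1 decimal. In both heart to torpedo comparisons, and in the change from globular to torpedo, stage and deposited form thus cannot be told apart. In the upper embryo, from heart cotyledon to torpedo apical, ARR15 differed by −0.59 (adjusted p = 0.629) and RR16 by −0.26 (adjusted p = 0.865), while the median of all probe sets was −0.46, 28.9% did not overlap and 0.067% were called. ARR15 and RR16 overlapped between these groups. From globular apical to heart cotyledon ARR15 differed by 0.37 and RR16 by −1.02 (both adjusted p = 1.00, with 0.0527% of probe sets called and 8.97% not overlapping). From globular basal to heart root ARR15 differed by 0.37 (adjusted p = 0.900) and RR16 by −0.65 (adjusted p = 0.854), with 0.0191% called and 17.3% not overlapping. The RR16 difference from globular to heart was thus negative in both lineages, and each interval included 0. Leaving out 1 array at a time moved it to between −1.44 and −0.58 in the upper and to between −1.21 and −0.068 in the lower lineage. Over all 13 comparisons, 0 of 26 limma tests of these genes passed at an adjusted p of 0.05, and 3 had an unadjusted p under 0.05.

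The levels of the 2 genes did not run together over arrays. Over the 25 arrays, Pearson's r between them on the log2(intensity + 10) scale was 0.03 and Spearman's rho −0.09, and r was −0.14 without the 2 arrays of ARR15 farthest from its median. These arrays share groups, labelling and scaling, so the values are descriptions. Whether the genes changed unequally between groups was tested on log2(ARR15 + 10) minus log2(RR16 + 10) within each array, which says nothing of which gene is the more abundant. In the torpedo apical arrays this within-array difference was 0.73, 0.35 and 2.56. In the torpedo basal arrays it was −1.12, −1.74 and −0.69. All 3 apical arrays thus lay above all 3 basal arrays, the shift was 2.40, and the exact 2-sided permutation test gave p = 0.1, the smallest that 3 against 3 arrays can give (adjusted p = 0.6 over 6 such tests). Between the meristem and the apical arrays the shift was −1.84 (exact permutation p = 0.3). It was 0.55 between meristem and basal (exact permutation p = 0.6), and −0.30, 0.08 and −0.92 in the globular, heart and torpedo cotyledon-root pairs, each with an exact permutation p of 1. The last pair, with 2 arrays a group, cannot reach a smaller p than 1 in 3.

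**Figure D4:**
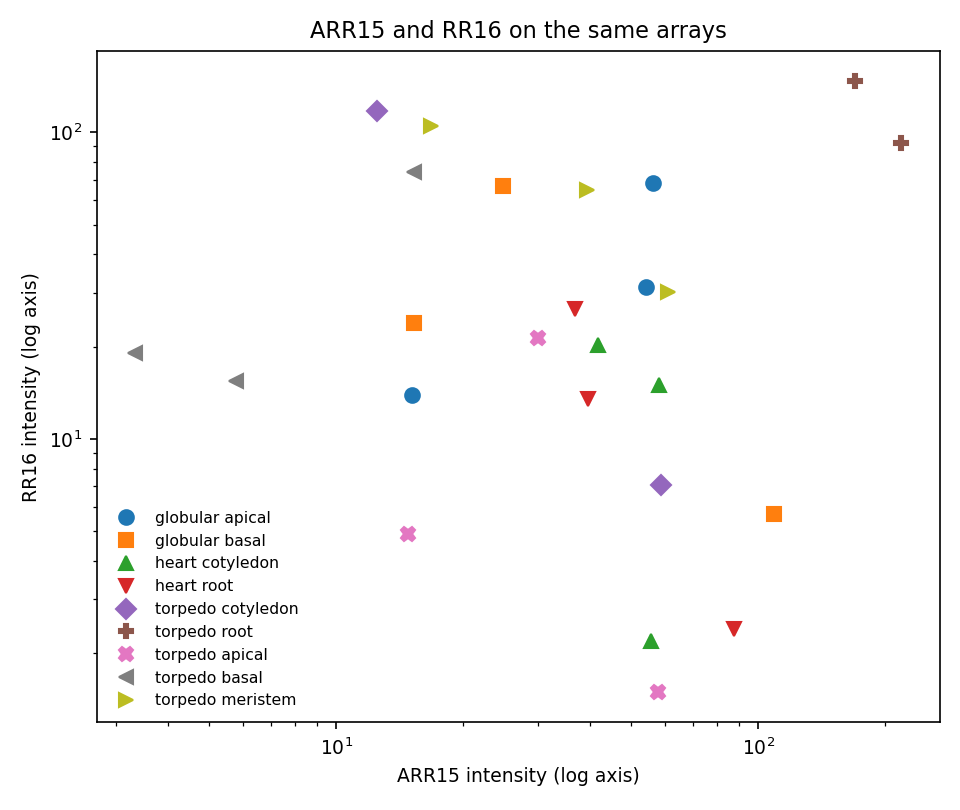
RR16 signal against ARR15 signal on the same array, both on log axes, 1 point for each of the 25 arrays with a symbol for each group. The torpedo root arrays lie at the upper right, the torpedo basal arrays at the left with RR16 at 15.4 to 74.2, and the torpedo apical arrays lower down with RR16 at 1.50 to 21.4; over all arrays r was 0.03.

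The signal of both genes was also related to measures of array quality. RR16 was higher on arrays that resembled the others less: its r with the median correlation of an array was −0.57 (rho −0.45, and r −0.58 without the 2 farthest arrays), and 91% of tested probe sets had a higher r. ARR15 had r = −0.28 (rho −0.09) with the same measure, and 63.3% of tested probe sets had a higher r. With the log2 hybridization controls, r was 0.46 for ARR15 (rho 0.47, and 0.55 without the 2 farthest arrays) and 0.52 for RR16 (rho 0.39, and 0.24 without them). Of tested probe sets, 78.4% had a lower r than ARR15 and 83.9% a lower r than RR16. With the log2 actin 3′ to 5′ ratio, r was −0.50 for ARR15 (rho −0.46) and −0.53 for RR16 (rho −0.54). Without the 2 farthest arrays these were −0.36 and −0.56. With the log2 median intensity of the array, r was 0.42 for ARR15 (rho 0.41, and 0.25 without the 2 farthest arrays). For RR16 it was 0.53 (rho 0.55, and 0.51 without them). All of these are over 25 arrays that fall into groups, so group and quality are entangled, and the part of quality in the levels was not tested.

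Few other genes of the pathway can be set beside them. Of 68 cytokinin genes listed for signalling, synthesis, activation, breakdown and transport, 5 had a probe set assigned to a single gene in the annotation used: ARR15 and RR16 of 10 type-A regulators, RR18 and RR19 of 11 type-B regulators, and RR22 of 2 type-C regulators. None of the 6 histidine kinases, 6 phosphotransfer proteins, 6 cytokinin response factors, 11 synthesis, 7 activation, 7 degradation or 2 transport genes listed had one. RR18, a type-B transcription factor, read 67.3, 116.1 and 119.4 in the globular apical arrays in ascending order, its highest group, and 2.40 to 34.0 in the torpedo apical arrays, its lowest. The largest of its differences over the 13 comparisons was from heart cotyledon to torpedo apical, −1.82 (SE 0.71, 95% interval −3.28 to −0.37, limma adjusted p = 0.204). RR19, also of type B, had group means between 4.88 in the torpedo apical and 37.8 in the heart cotyledon arrays. RR22, a type-C regulator, reached 41.5 at most and did not pass the filter on low values, which asked for an intensity of 50 on at least 2 arrays. In each of the 13 comparisons 0 of the 4 tested genes were called higher and 0 lower. Moderated F tests gave adjusted p = 0.206 for RR18 and 0.769 for RR19.

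The genes whose pattern was most like each regulator's were taken from all tested probe sets assigned to a single gene, by Pearson's r over the 25 arrays on the log2 scale. For ARR15 the nearest were AT4G03500 (r = 0.77), AT1G75730 (0.77), AT1G63220 (0.76), AT2G22030 (0.76) and AT2G14700 (0.76), with r between 0.84 and 0.89 over the 9 group means. For RR16 they were AT3G30220 (r = 0.81), AT3G43110 (0.81), AT2G37670 (0.80), AT5G38400 (0.80) and AT3G61410 (0.80), with r between 0.87 and 0.96 over group means. The lists share no gene, and none of these is on the cytokinin lists. Since each is the nearest among all single-gene probe sets, these r values are high by selection, and the arrays share the quality differences given above. Many of these probe sets were also dim. The RR16 list had median intensities of 32.9, 13.5, 12.2, 4.6 and 8.96 over the 25 arrays, in the order given. The ARR15 list had medians from 13.7 to 64.6. The bacterial control median was typically 14.4.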

How the data were processed

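The authors deposited MAS5 intensity values, 1 per probe set and array, in a table of 22810 probe sets by 27 arrays; MAS5 is named in the submitters' processing notes, with neither version nor settings. No other column was present. Checked on the values, 18 arrays were rounded to 1 decimal and 9 were not. Groups came from titles and tissue labels. From these intensities, log2(intensity + 10) was fitted with limma 3.58.1 in R 4.3.3 (a mean per group over 25 arrays, eBayes with an intensity trend, 2-sided) for 20890 probe sets that are not controls and reached 50 on at least 2 arrays, with Benjamini-Hochberg adjustment over all of them. The 64 control probe sets were left out of tests. The fit was tested on simulated data. The number of arrays limits the precision.

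Probe sets were named from the platform annotation: 13513 have 1 gene (13436 of them matched to RefSeq TAIR10.1), 503 have several and 8730 none. Named genes are ARR15 and RR16, the only listed type-A regulators with a single-gene probe set. Also named are up to 2 genes of each other cytokinin list by mean level. For each of ARR15 and RR16 the 5 single-gene probe sets of highest correlation are named too. These genes, lists and comparisons were chosen with earlier results of these data known. Replicate numbers were not used as pairs in the main fit. Of 11 same-numbered pairs, 2 had a correlation of deviations over 0.1, both of the heart stage (0.38 and 0.15). The best correlation was with the own number in 7 of the 11. Among these 7 are the 2 torpedo cotyledon-root pairs, which must give the same value (0.09) because each group holds 2 arrays. The closest 2 arrays of all correlated at 0.877, so no array was counted as a duplicate. No probe, promoter or protein sequence was used here.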

Additional observations from a re-analysis of the deposited data

How the results depend on the processing

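The 34 differences and F tests of ARR15 and RR16 were recomputed 628 times in all: 53 changed sign and 575 did not. No limma adjusted p fell under 0.05 (lowest 0.0855, ARR15 F test with array weights). F tests have no sign, and the permutation tests, which cannot give a p under 0.1, could not pass. The cause of the sign changes was not tested. Under quantile normalization ARR15 became −0.065 in the globular pair, −0.31 in the heart pair, −0.48 for meristem minus apical and −0.25 for the change from globular to heart, and RR16 0.21 from heart cotyledon to torpedo apical. Median centring gave −0.29, −0.46 and −0.35 for the last 3 of these in ARR15, and 0.23 in RR16. A pseudocount of 1 gave −0.017 for the ARR15 change from globular to heart. A pseudocount of 50 gave −0.036 and −0.0085 for ARR15 in the globular and heart pairs. Array weights gave −0.094 for ARR15 in the globular pair and 0.11 for RR16 from heart cotyledon to torpedo apical. Without the arrays of low correlation ARR15 was −0.062 in the heart pair and −0.071 for its change from globular. Without the arrays of high hybridization controls the globular pair gave −0.23 for ARR15 and −0.14 for RR16, and the RR16 change from globular to heart was 0.067. Leaving out 1 array at a time gave, for ARR15, −0.44 to 0.68 in the globular pair, −0.18 to 0.35 in the heart pair, −0.66 to 0.45 for the change between them, −0.20 to 0.54 for meristem minus apical, −0.088 to 0.61 for globular apical to heart cotyledon and −0.082 to 1.03 for globular basal to heart root. For RR16 it gave −0.26 to 0.88, −0.48 to 0.32 and −0.95 to 0.19 for the first 3 of these, −2.89 to 0.0062 for torpedo cotyledon minus root and −0.68 to 0.043 for heart cotyledon to torpedo apical. For unequal change it gave −1.09 to 0.94 in the globular, −0.47 to 0.84 in the heart and −3.17 to 1.34 in the torpedo cotyledon-root pair, and −0.17 to 1.29 between meristem and basal. With no sign change it gave, for ARR15, −0.96 to −0.24 for heart cotyledon to torpedo apical and 0.54 to 1.66 for the change from globular to torpedo, and for RR16 −2.06 to −0.91 for that change, 0.30 to 1.22 for heart root to torpedo basal and 0.47 to 1.37 for meristem minus basal. With the replicate number as a block, ARR15 in torpedo cotyledon minus root stayed at −2.36 (limma adjusted p = 0.217), and no call of either gene changed; 7 of 11 same-numbered pairs correlated best with their own number. The block could not be fitted for the meristem and the heart to torpedo comparisons, which share fewer than 2 numbers, and the F test was not run with it, with arrays left out, or without the arrays of doubtful quality. Without those arrays torpedo cotyledon minus root has no value, since both torpedo root arrays drop out. Adding the contradicting arrays gave −1.86 for ARR15 and −1.76 for RR16 there by title, and −1.29 and −0.16 by tissue label; by tissue label the means of 4 pairs became −0.012 and −0.28. With a pseudocount of 50 ARR15 was −0.82 from heart root to torpedo basal and RR16 0.94 for meristem minus apical, and with 1 they were −2.71 and 3.12. Counts of all probe sets past the threshold moved by more than 1.5 times: from 44 to between 0 and 1070 for meristem minus apical, 14 to between 3 and 737 for heart cotyledon to torpedo apical, 19 to between 1 and 196 for torpedo apical minus basal, 14 to between 0 and 79 for heart root to torpedo basal, 2 to between 0 and 109 for torpedo cotyledon minus root and 0 and 50 for heart cotyledon minus root, 11 to between 3 and 31 for globular apical to heart cotyledon, 4 to between 0 and 34 for globular basal to heart root, 3 to between 0 and 24 for meristem minus basal, 1 to between 0 and 19 for the change from globular to torpedo and 0 and 11 for the mean of 4 pairs, and 0 to at most 2 and 1 for the globular pair and the change to the heart stage.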

Other observations

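The 2 arrays whose title and tissue label contradict each other entered no group. The array titled torpedo cotyledon replicate 2 had ARR15 at 33.9 and RR16 at 12.6, and the array titled torpedo root replicate 2 had ARR15 at 69.5 and RR16 at 109.0. The latter also had a median correlation of 0.340 with the other arrays, and its hybridization controls had a geometric mean of 49047.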
